A study of Rattus norvegicus with 6 samples.

Results

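This account follows 9 G protein-coupled receptor genes of the islet: the somatostatin receptors Sstr1 to Sstr5, the galanin receptor Galr1, the long-chain fatty acid receptor Ffar1, the lipid amide receptor Gpr119 and the neuropeptide Y receptor Npy1r. They were chosen by name, as the probe sets whose single gene symbol was one of these, and all 9 were found, each with 1 probe set, among 14506 named genes. Total RNA came from beta cell-enriched pancreatic cells of male Wistar rats that had been separated by light scatter and autofluorescence, with no further genotype or treatment given, and the series describes the cells as primary cultured. One group held 3 preparations from suckling rats at postnatal day 20 and the other 3 preparations from young adults of 250 to 280 g, about 2 months old. Each preparation is a separate biological replicate per the labels, and the number of animals behind it was not stated there. Values are log2 signals after RMA, so a difference of 1 is a 2-fold change.

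Receptors of this kind pass a signal from outside the cell to a G protein, and the class of G protein sets the direction of the effect on insulin release. The somatostatin receptors, Galr1 and Npy1r couple to the inhibitory Gi and Go proteins, which lower cyclic AMP, open G protein-gated potassium channels and restrain exocytosis. Ffar1 (GPR40) binds medium- and long-chain fatty acids and acts through Gq and phospholipase C, while Gpr119 binds oleoylethanolamide and monoacylglycerols and raises cyclic AMP through Gs. Both potentiate insulin release when glucose is high.

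In adult preparations the fatty acid receptor Ffar1 was 2.84-fold higher than at day 20, and the somatostatin receptors Sstr3 and Sstr2 were 1.70-fold and 1.66-fold higher. These 3 of the 9 receptors passed the threshold, an adjusted p under 0.05 over all genes, and all 3 were higher in adult. Over all genes 22.7% passed, 11.8% higher and 10.9% lower in adult. By limma 0 receptors were lower in adult, also at an unadjusted p under 0.05, at which 5 were higher. At that unadjusted p 2629 of the 14506 genes were higher and 2332 lower. The adult arrays all lay above the day 20 arrays for 4 receptors, against 20.9% of all genes, and below them for 0, against 18.7%. The median log2 difference was 0.31 over the 9 receptors and 0.012 over all genes. With 9 genes chosen by name, these shares describe the set and are not a test of it.

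**Figure D1:**
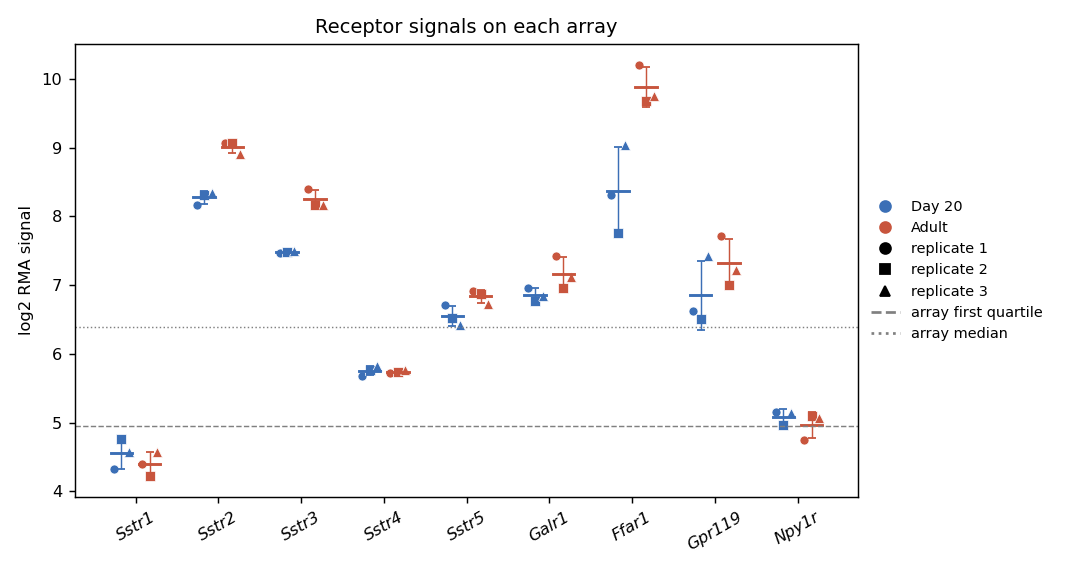
Log2 RMA signal (vertical axis) of each receptor on each of the 6 arrays, with day 20 in blue and adult in red; bars are means with the SD over 3 arrays, symbols give the replicate number, and grey lines mark the first quartile and the median of the arrays. Ffar1, Sstr2 and Sstr3 are clear of overlap between the ages, while Sstr1 and Npy1r lie around or under the first quartile.

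The arrays carried no detection calls, and a signal near their first quartile (4.91 to 4.94) is not shown to be above background. Array medians lay between 6.35 and 6.39. Across the 14506 genes Pearson's r was 0.992 to 0.997 between arrays of the same age and 0.972 to 0.983 between ages, with genes not being independent replicates. The insulin genes lay between 13.81 and 14.35 on every array, so the defining beta cell marker is present. The other 5 of 7 measured beta cell markers, Iapp, Nkx6-1, Slc2a2, Slc30a8 and Ucn3, all rose with age, by 2.04-fold to 2.90-fold (adjusted p at most 0.0069), and neither insulin gene passed. The insulin signals lay near the highest value on any array, 14.71, as did the acinar markers below. Whether differences are compressed at that level was not tested, so insulin RNA is not shown to be unchanged. RNA of marker genes of other pancreatic cells was present too: the alpha cell hormone Gcg lay between 12.73 and 14.19, and the 9 acinar markers, digestive enzyme genes led by Ctrb1, between 14.07 and 14.71. The arrays do not show whether this RNA came from such cells in the preparations. Of the 4 measured alpha cell markers Ttr fell with age (log2 difference -0.74, adjusted p = 0.022). Gcg (-0.73, adjusted p = 0.072), Irx2 (-0.21, adjusted p = 0.32) and Gc (0.25, adjusted p = 0.69) did not pass. In such mixed RNA a change in the number of cells of a type and a change in RNA per cell cannot be told apart.

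The sequences before the annotated starts of Sstr2 and Sstr3 are shown because these receptors of the same family rose by nearly the same amount, with low spread within each age. Each run is the 250 bases before the RefSeq start in GRCr8, on the gene's strand, with TGACGTCA and CATCTG in capitals; the first is the cyclic AMP response element, the second an E-box of the kind bound by bHLH factors.
Sstr2 (chr10:99163103-99163352, plus strand): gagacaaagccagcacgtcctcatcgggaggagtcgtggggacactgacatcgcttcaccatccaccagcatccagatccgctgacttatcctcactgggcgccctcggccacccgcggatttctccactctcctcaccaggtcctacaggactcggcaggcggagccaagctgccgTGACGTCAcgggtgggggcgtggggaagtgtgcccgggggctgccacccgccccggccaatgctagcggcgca
Sstr3 (chr7:111980251-111980500, minus strand): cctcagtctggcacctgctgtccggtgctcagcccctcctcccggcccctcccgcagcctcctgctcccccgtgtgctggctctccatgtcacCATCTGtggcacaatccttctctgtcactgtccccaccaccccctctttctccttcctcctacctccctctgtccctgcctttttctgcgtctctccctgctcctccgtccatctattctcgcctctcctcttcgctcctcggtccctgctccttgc

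The Sstr2 window held TGACGTCA starting 73 bases before the start, a motif found in 1.59% of the 33469 windows of this length. The Sstr3 window held CATCTG starting 157 bases before the start, found in 14.0% of windows. Neither window held TATAAA (12.9% of windows). Sstr2 also held CCAAT (34.0%) and GGGCGG (30.5%), which Sstr3 did not. No motifs overlapped, all were searched on both strands, and a match is a description of the letters, not of a bound site. The windows of the other receptors, Ffar1 included, held neither TGACGTCA nor CATCTG. The Ffar1 window is not printed, since its RefSeq model spans 905 bases and starts 2 bases before an ATG, so the annotated start may not be where transcription begins. The annotated starts of the remaining receptors were not checked in this way.

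Of the 5 somatostatin receptors, Sstr2 and Sstr3 rose with age. Sstr2 (probe set 10739364), a Gi-coupled receptor known from alpha and beta cells of rodent islets, had log2 signals of 9.07, 9.06 and 8.90 on adult replicates 1 to 3 and of 8.17, 8.32 and 8.35 on those of day 20. The groups did not overlap, and the lowest adult array stood well clear of the highest day 20 array. The log2 difference was 0.73 ± 0.093 (SE, n = 3 per age; adjusted p = 0.0011), a 1.66-fold rise with a 95% interval of 1.44 to 1.93. Sstr3 (probe set 10905312), a receptor that localises to primary cilia, had signals of 8.40, 8.17 and 8.17 in adult and of 7.46, 7.48 and 7.50 at day 20. Its day 20 arrays agreed closely, with an SD of 0.019, and all lay below the adult arrays. The log2 difference was 0.77 ± 0.094 (adjusted p = 0.00089), a 1.70-fold rise with an interval of 1.47 to 1.97.

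The remaining somatostatin receptors did not pass. Sstr5 (probe set 10741456), a receptor through which somatostatin inhibits insulin release in rodents, had signals of 6.92, 6.87 and 6.73 in adult and of 6.71, 6.53 and 6.42 at day 20. Its groups were separated by a gap smaller than the spread within either age, and the log2 difference of 0.29 ± 0.10 had an adjusted p of 0.081. Without day 20 replicate 1 it passed, with a difference of 0.37 and an adjusted p of 0.049. Sstr4 (probe set 10840565), a receptor best known from brain and lung, lay between 5.68 and 5.82 on all 6 arrays, and the 95% interval of its log2 difference, -0.20 to 0.17, runs from 0.868-fold to 1.13-fold. All its signals lay under the array median. Sstr1 (probe set 10884732), another Gi-coupled receptor, lay between 4.22 and 4.76, under the first quartile on every array, so its level is not shown to be above background (log2 difference -0.16 ± 0.13, adjusted p = 0.48).

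**Figure D2:**
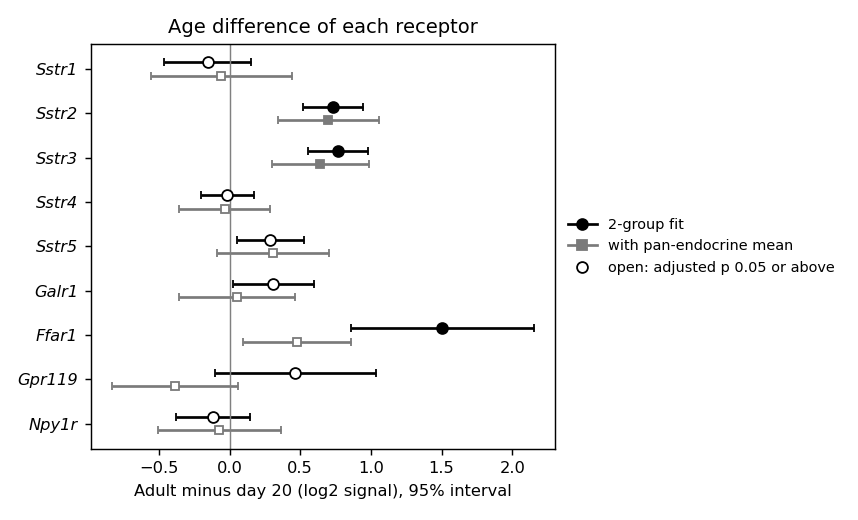
Log2 difference adult minus day 20 of each receptor (horizontal axis) with its 95% interval, from the 2-group fit (black circles) and from a fit with the mean of 12 pan-endocrine genes as a covariate (grey squares); filled symbols passed an adjusted p of 0.05. With the covariate Sstr2 goes from 0.73 to 0.70, Sstr3 from 0.77 to 0.64, Ffar1 from 1.51 to 0.48 and Gpr119 from 0.47 to -0.39.

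Ffar1 had the largest difference of the 9 and the widest spread within an age. Ffar1 (probe set 10720795) had log2 signals of 10.21, 9.68 and 9.75 on adult replicates 1 to 3 and of 8.32, 7.76 and 9.04 on those of day 20. The ages did not overlap, but day 20 replicate 3 lay closer to the adult arrays than to day 20 replicate 2. The mean was 9.88 ± 0.29 in adult and 8.37 ± 0.65 at day 20 (SD, n = 3). The log2 difference was 1.51 ± 0.29 (SE, adjusted p = 0.0064), with a 95% interval of 1.81-fold to 4.45-fold. It passed with each of the 6 arrays left out, between 1.20 without day 20 replicate 2 and 1.84 without day 20 replicate 3.

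The spread of Ffar1 ran alongside that of general endocrine genes. The mean log2 signal of 12 pan-endocrine genes of prohormone processing and secretory granules (the granins Chga, Chgb, Scg2 and Scg3, the convertase Pcsk2 with its helper Scg5, Cpe, Pcsk1n, the phosphatase-like Ptprn and Ptprn2, Resp18 and Scgn) was 11.24, 10.55 and 10.73 on adult replicates 1 to 3 and 9.95, 9.39 and 10.40 on those of day 20. Of these 12 genes 9 rose and 0 fell by limma, with 10 higher and 0 lower at an unadjusted p under 0.05. Over all genes 11.8% rose and 10.9% fell, and at the unadjusted p 2629 of 14506 were higher and 2332 lower. Ffar1 and this mean put the 6 arrays in the same order, from day 20 replicate 2 at the bottom to adult replicate 1 at the top. With the mean as a covariate the difference of Ffar1 was 0.48 (95% interval 0.092 to 0.86) and did not pass (adjusted p = 0.16). Under the same covariate Sstr2 kept a difference of 0.70 (adjusted p = 0.038) and Sstr3 one of 0.64 (adjusted p = 0.044). The mean holds genes that may themselves rise within beta cells, and the list had been put together with earlier results of these data known. The 95% interval of Sstr2 was 0.52 to 0.95 without the covariate and 0.34 to 1.06 with it. That of Ffar1 was 0.86 to 2.15 without it, wider than with it. On the 6 arrays the pan-endocrine mean did not overlap between the ages, so the fit separates it poorly from age. The mean of the 7 beta cell markers likewise lay at 11.74 to 12.21 in adult and at 10.56 to 11.18 at day 20, and the part of these markers in the receptor differences was not tested. Under the pan-endocrine covariate none of the 5 beta cell markers that rose passed (adjusted p = 0.068 to 0.29). Whether the differences of Ffar1 and the somatostatin receptors depend on the mean to unequal degrees was not tested.

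**Figure D3:**
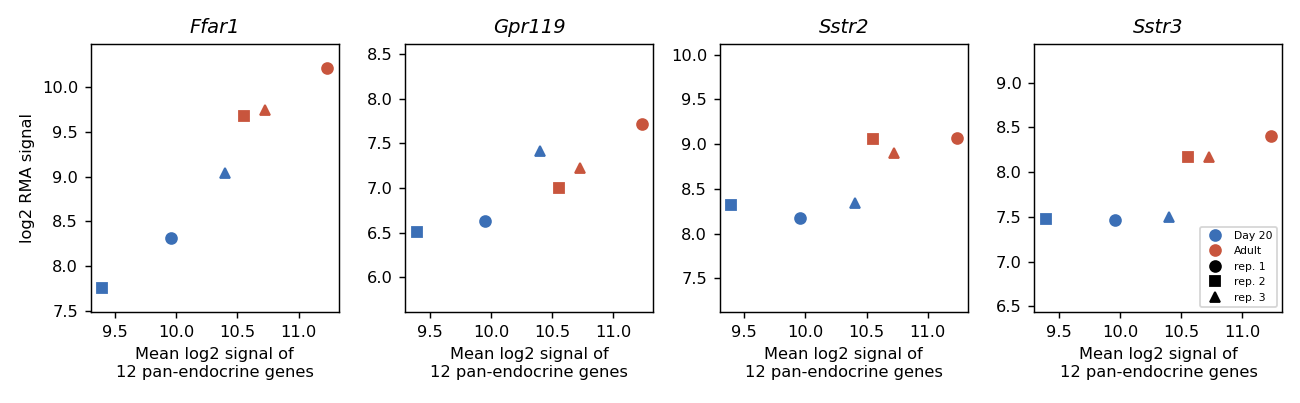
Log2 RMA signal (vertical axis, spanning 3 log2 units in each panel) of Ffar1, Gpr119, Sstr2 and Sstr3 against the mean log2 signal of 12 pan-endocrine genes (horizontal axis) on each array, with day 20 in blue and adult in red. Ffar1 climbs with the mean across all 6 arrays. On the day 20 arrays, at a mean of 9.39 to 10.40, Sstr2 spans 8.17 to 8.35 and Sstr3 7.46 to 7.50. On the adult arrays Sstr3 is highest (8.40, against 8.17 on both others) where the mean is highest (11.24).

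Gpr119 and Galr1 had higher means in adult and did not pass. Gpr119 (probe set 10939634), the Gs-coupled lipid receptor, had signals of 7.72, 7.01 and 7.23 in adult and of 6.63, 6.50 and 7.42 at day 20. Day 20 replicate 3 lay above adult replicates 2 and 3, so the ages overlapped, and the log2 difference of 0.47 ± 0.25 had an adjusted p of 0.23. Without that array the difference was 0.75 and passed (adjusted p = 0.027), and under the pan-endocrine covariate its sign turned (-0.39, adjusted p = 0.33). Galr1 (probe set 10805465), which binds galanin, a peptide that inhibits insulin release, had signals of 7.42, 6.95 and 7.12 in adult and of 6.96, 6.77 and 6.84 at day 20. Its ages overlapped by adult replicate 2 alone (log2 difference 0.31 ± 0.13, adjusted p = 0.12). The difference was 0.18 without adult replicate 1 (adjusted p = 0.29) and 0.053 under the pan-endocrine covariate (adjusted p = 0.92). Npy1r (probe set 10791303), a receptor of neuropeptide Y and peptide YY, lay between 4.75 and 5.15, around the first quartile (log2 difference -0.12 ± 0.12, adjusted p = 0.54), and its level is not shown to be above background.

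By a fixed rule, the 3 genes with the closest course over the 6 arrays were looked up for each called receptor, as the distance between log2 values centred on each gene's own mean, among 9531 other genes whose log2 signal averaged 6 or more. For Ffar1 these were Scgn, the calcium sensor secretagogin and 1 of the 12 pan-endocrine genes (distance 0.23), Cnih2, a partner of AMPA receptors (0.25), and Crispld1 (0.27). Nearest to Sstr2 were Crbn, a substrate receptor of a ubiquitin ligase (0.084), Eif2ak1, the heme-regulated eIF2 kinase (0.086), and Dnajb9, a chaperone of the endoplasmic reticulum (0.10). Sstr3 was closest to Rilpl2 (0.071), to the semaphorin receptor Plxnb2 (0.076) and to Wls, which carries Wnt proteins to the surface (0.11). The age difference itself sets much of this likeness, since only genes with a similar difference can lie near.

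Of the peptide ligands of these receptors, 3 of 7 measured fell with age and 0 rose by limma, with 4 lower and 1 higher at an unadjusted p under 0.05. Over all genes 10.9% fell and 11.8% rose, and at the unadjusted p 2332 of 14506 were lower and 2629 higher. Sst, which encodes somatostatin, had signals of 11.62, 11.49 and 11.64 in adult and of 12.68, 12.21 and 12.51 at day 20. Every day 20 array lay above every adult array, and the gene was 1.85-fold higher at day 20 (log2 difference -0.88 ± 0.12, adjusted p = 0.0016). The receptors Sstr2 and Sstr3 stood higher in the group in which Sst stood lower, while Sstr1, Sstr4 and Sstr5 did not pass. A relation of Sst to its receptors was not tested. Ppy, the hormone of PP cells and the ligand of Npy4r, was 4.23-fold higher at day 20 (11.24 ± 0.26 against 9.16 ± 0.29, SD, n = 3, adjusted p = 0.00014), and Pyy, peptide YY, 4.75-fold (9.69 ± 0.58 against 7.44 ± 0.19, adjusted p = 0.00055).

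The other peptide ligands did not pass. Npy, neuropeptide Y itself, lay between 8.18 and 8.38 in adult and between 7.48 and 8.10 at day 20 (log2 difference 0.46, adjusted p = 0.067), and it passed without day 20 replicate 3 (0.58, adjusted p = 0.032). Cort, cortistatin, which also binds somatostatin receptors, had a difference of -0.28 (adjusted p = 0.065). Gal, galanin, lay at the first quartile in both groups (5.03 ± 0.14 in adult and 4.92 ± 0.11 at day 20), and Galp, a galanin-like peptide, had a difference of 0.026 (adjusted p = 0.89). Sst and Ppy are themselves markers of other islet cells, delta and PP cells, so the marker lists overlap the ligands. Of the 3 delta cell markers other than Sst, the transcription factor Hhex fell (difference -0.58, adjusted p = 0.0058), while Rbp4 (-0.90, adjusted p = 0.14) and Ghsr (0.020, adjusted p = 0.94) did not pass. The PP and epsilon cell list holds Ppy, Pyy and 1 further gene, Ghrl, the epsilon cell hormone ghrelin, which was 1.28-fold higher at day 20 (adjusted p = 0.022). Ghrl did not pass without adult replicate 1 or 3 or without day 20 replicate 3 (adjusted p = 0.053, 0.078 and 0.067). Under the pan-endocrine covariate Ghrl, Hhex and Ghsr did not pass (adjusted p = 0.17, 0.13 and 0.44). Under it Rbp4 was lower in adult (-2.06, adjusted p = 0.025). Sst (-1.12, adjusted p = 0.011), Ppy (-2.58, adjusted p = 0.00045) and Pyy (-2.74, adjusted p = 0.0034) also passed with the covariate. The part of these cells in the ligand differences was not tested.

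**Figure D4:**
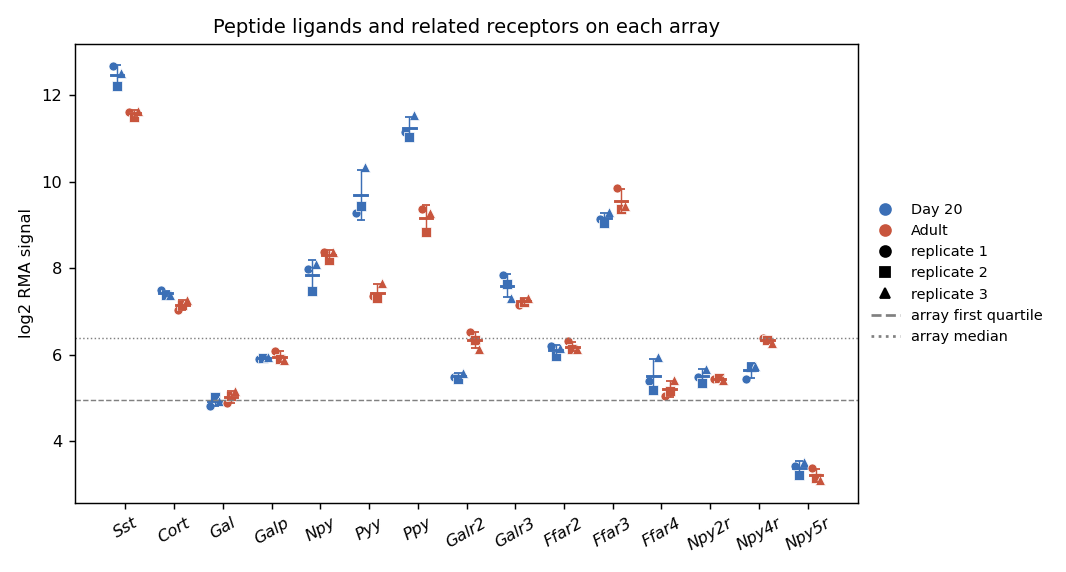
Log2 RMA signal (vertical axis) of 7 peptide ligands and 8 related receptors on each array, with day 20 in blue and adult in red; bars are means with the SD over 3 arrays and grey lines mark the first quartile and the median of the arrays. Sst, Pyy and Ppy lie lower in adult, and the receptors Galr2 and Npy4r lie higher.

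Among 8 measured relatives of the galanin, fatty acid and neuropeptide Y receptors, 2 rose and 0 fell by limma (3 and 1 at an unadjusted p under 0.05). The shares that rose and fell over all genes were 11.8% and 10.9%. Galr2, a galanin receptor that couples mainly to Gq, had signals of 6.53, 6.35 and 6.14 in adult and of 5.50, 5.44 and 5.58 at day 20, a 1.78-fold rise (log2 difference 0.83 ± 0.11, adjusted p = 0.0013). Npy4r, the receptor of pancreatic polypeptide, had signals of 6.39, 6.34 and 6.26 against 5.45, 5.71 and 5.75, a 1.62-fold rise (0.70 ± 0.10, adjusted p = 0.0021). Neither overlapped between the ages, and both rose from below the array median to about that median. Under the pan-endocrine covariate both missed the threshold (differences of 0.63 and 0.65, adjusted p = 0.065 and 0.067).

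Galr3, the third galanin receptor, had a difference of -0.37 (adjusted p = 0.077) and was lower in adult without day 20 replicate 3 (-0.51, adjusted p = 0.015). The short-chain fatty acid receptor Ffar3 lies beside Ffar1 in the genome and lay between 9.36 and 9.86 in adult and between 9.04 and 9.29 at day 20 (difference 0.40, adjusted p = 0.072). Its relative Ffar2 had a difference of 0.074 (adjusted p = 0.67). Ffar4 (GPR120), another long-chain fatty acid receptor, had one of -0.29 (adjusted p = 0.33), with day 20 arrays between 5.17 and 5.96 that overlapped the adult arrays. Npy2r (difference -0.060, adjusted p = 0.75) and Npy5r (-0.17, adjusted p = 0.35) did not pass either, and Npy5r lay far under the first quartile.

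Downstream of the inhibitory receptors, 2 of 5 inhibitory G protein alpha subunits rose and 0 fell by limma (3 and 0 at an unadjusted p under 0.05). Over all genes 11.8% rose and 10.9% fell, and these shares also stand beside the counts of the lists that follow. At the unadjusted p 2629 of 14506 genes were higher and 2332 lower. Gnao1, the Go subunit, rose 2.08-fold, from 9.02 ± 0.51 to 10.08 ± 0.43 (SD, n = 3, adjusted p = 0.022), and Gnai2, a Gi subunit, 1.52-fold (10.94 ± 0.25 against 10.34 ± 0.16, adjusted p = 0.015). The call of Gnao1 was lost without adult replicate 1 (adjusted p = 0.067) and without day 20 replicate 1 (0.081) or 2 (0.073), and that of Gnai2 without day 20 replicate 2 (0.057). Gnaq, the Gq subunit that serves Ffar1, was the 1 of 6 Gs and Gq family subunits to pass, rising 1.55-fold from 9.36 ± 0.15 to 9.99 ± 0.22 (adjusted p = 0.0089). Of these 6 subunits 1 was higher and 1 lower at an unadjusted p under 0.05. Under the pan-endocrine covariate the difference of Gnao1 went from 1.06 to 0.080, that of Gnai2 from 0.60 to 0.23 and that of Gnaq from 0.63 to 0.30, and none passed (adjusted p = 0.85, 0.52 and 0.36).

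Among 13 beta and gamma subunits, which carry the signal to potassium channels, 1 rose and 1 fell (2 and 2 at an unadjusted p under 0.05). Gnb5, the partner of some RGS proteins, was 1.44-fold higher in adult (adjusted p = 0.025). It did not pass when adult replicate 1 or adult replicate 3 was left out, nor without either of day 20 replicates 1 and 2 (adjusted p up to 0.089). Gng11 was 1.89-fold higher at day 20 (adjusted p = 0.0039) at signals near the first quartile in adult (4.69 ± 0.33). Of the 4 G protein-gated potassium channel genes Kcnj5 rose, 1.41-fold (7.89 ± 0.11 against 7.39 ± 0.15, adjusted p = 0.011). Of 7 adenylyl cyclases, the enzymes that Gi proteins inhibit, Adcy8 rose by 0.60 and Adcy5 fell by 0.39 on the log2 scale (adjusted p = 0.044 and 0.033), and each lost its call in 4 of the 6 fits that left out an array (adjusted p up to 0.15 and 0.11). The arrays in question were adult replicates 1 and 2 and day 20 replicates 1 and 3 for Adcy8, and adult replicates 1 and 3 and day 20 replicates 1 and 2 for Adcy5. The day 20 signals of Adcy8, 4.32 to 4.91, lay near or under the first quartile and are not shown to be above background. Of the 7 cyclases 2 were higher and 2 lower at an unadjusted p under 0.05.

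RGS proteins shorten G protein signals, and of 17 measured 2 rose and 1 fell (6 and 2 at an unadjusted p under 0.05). Rgs16 rose 1.67-fold, from 7.95 ± 0.071 to 8.69 ± 0.30 (adjusted p = 0.0067), and Rgs9 1.50-fold (adjusted p = 0.015), the latter not without day 20 replicate 1 or 2 (adjusted p = 0.056 for both). Rgs5, known from pericytes and other vessel wall cells, was 2.54-fold higher at day 20 (7.61 ± 0.27 against 6.26 ± 0.11, adjusted p = 0.00038). It moved with the 7 endothelial markers, led by Pecam1, Cdh5 and Plvap, all of which fell, with list means of 5.60 to 5.71 in adult and 6.67 to 7.34 at day 20. The part of vessel cells in the fall of Rgs5 was not tested.

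Receptor kinases and arrestins, which switch off activated receptors, rose in 4 of 7 cases and fell in 0 by limma (5 and 0 at an unadjusted p under 0.05). Over all genes 11.8% rose and 10.9% fell. The median log2 difference of the 7 kinases and arrestins was 0.41. Grk5 rose 2.21-fold, from 6.28 ± 0.21 to 7.42 ± 0.66 (adjusted p = 0.019), Grk3 1.73-fold, from 6.58 ± 0.19 to 7.37 ± 0.53 (adjusted p = 0.037), and Grk4 1.35-fold (adjusted p = 0.039). Much of the spread of Grk3 and Grk5 came from adult replicate 1, at 7.97 and 8.18, against at most 7.12 and 7.08 on the other adult arrays. Arrb1, beta-arrestin 1, was 1.33-fold higher (9.57 ± 0.13 against 9.15 ± 0.068, adjusted p = 0.016). The call of Grk5 was lost without day 20 replicate 1 or 2 (adjusted p up to 0.077) and that of Grk3 without any 1 of the day 20 arrays (up to 0.12). That of Grk4 depended on each of adult replicates 1 and 2 and day 20 replicates 1 and 3 (up to 0.12).

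**Figure D5:**
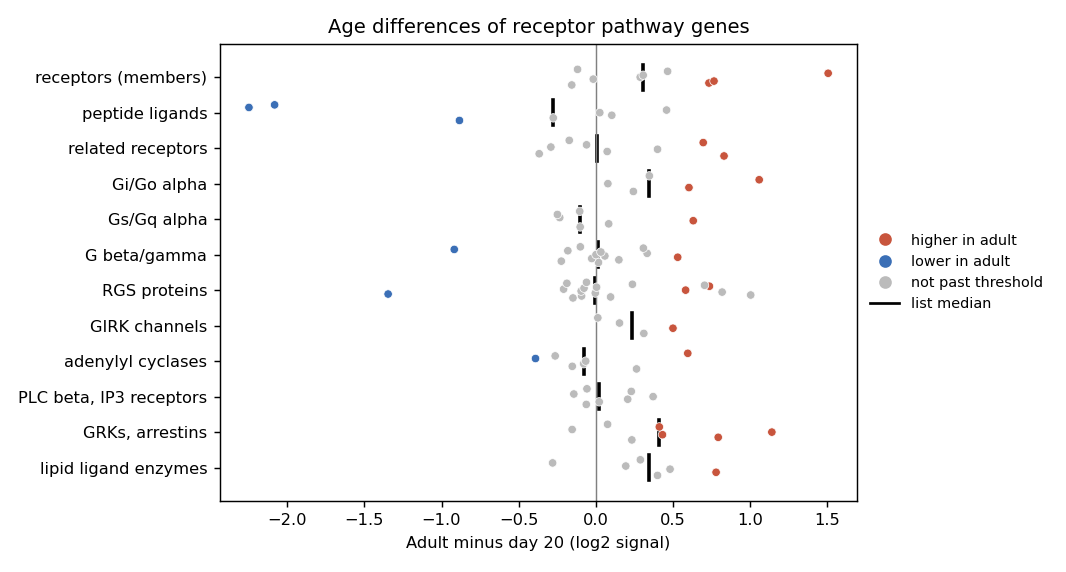
Log2 difference adult minus day 20 (horizontal axis) of each measured gene in the receptor set and in 11 lists of ligands and signalling partners; red marks genes called higher and blue genes called lower in adult, grey genes that did not pass, and black lines are list medians. The receptors have a median of 0.31 and the peptide ligands one of -0.28.

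Over the 11 lists together, 15 of 87 measured genes rose and 6 fell, with a median difference of 0.059. Their 87 genes were picked for their place in these pathways and stand beside the 11.8% higher and 10.9% lower among all genes. Without day 20 replicate 1 the count of risers was 8, and without day 20 replicate 2 it was also 8. Under the pan-endocrine covariate 1 rose, Faah. Of the genes that fell, Ppy, Rgs5, Pyy and Sst passed under it (adjusted p = 0.00045, 0.0026, 0.0034 and 0.011). Gng11 and Adcy5 did not (adjusted p = 0.16 and 0.7).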

How the data were processed

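The authors deposited log2 signals per probe set. The submitters' processing notes name RMA, a method of background correction, quantile normalization and probe summary that compresses differences at low signal. Which software version, annotation and genome build were used is not given in the sources used here. Of 29214 probe sets 15310 had 1 gene symbol, 323 several and 13581 none listed; symbols were updated through RefSeq. For 527 genes with several probe sets the brightest was used, giving 14506 genes, with no filter on low signal. Adult was compared with day 20 by lmFit and eBayes of limma 3.58.1 (R 4.3.3), with two-sided p-values adjusted over all genes after Benjamini and Hochberg. Tables and plots were made with pandas 2.3.3, numpy 2.4.6 and matplotlib 3.10.9 in Python 3.11.15. The fit was tested on simulated data.

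Genes named are the 9 receptors and all measured ligands and related receptors. In each other list up to 3 called rises and 3 called falls are named (the brightest gene where none passed). Also named are up to 3 of the brightest markers of a cell type and the 3 genes nearest to each called receptor. Arrb1, Rbp4, Ttr and the beta cell markers beyond the brightest 3 were added after their values were seen. The 12 pan-endocrine genes are named as the content of the covariate. The receptors, lists and covariate were chosen with earlier results of these data known. Promoter windows are RefSeq's, GRCr8, and all 9 receptors matched; protein sequences were not used here. Precision is limited by 3 arrays per age. Alternatives were another quantile normalization, median centring, removal of the lower 33.3% of genes by signal, a trended robust variance, 2 ways of treating several probe sets, array weights, the replicate number as a block, the pan-endocrine mean as a covariate, and each array left out.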

Additional observations from a re-analysis of the deposited data

How the results depend on the processing

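Sstr2, Sstr3 and Ffar1 kept their direction and their call in all 15 alternatives, except that Ffar1 missed the threshold under the pan-endocrine covariate (0.48). Over the 6 fits that left out an array, Sstr2 lay between 0.68 and 0.79, Sstr5 between 0.22 and 0.37, Gpr119 between 0.27 and 0.75 and Sstr4 between -0.051 and 0.016. The sign turned for Sstr4 with another quantile normalization (0.013), for Gpr119 with the covariate (-0.39), for Ffar2 with it (-0.12), for Galp with array weights (-0.023) and with the covariate (-0.082), and for Itpr3 with the covariate (0.16). Without single arrays Galp ranged from -0.044 to 0.067, Itpr3 from -0.14 to 0.0030 and Npy2r from -0.14 to 0.028. None of these 6 genes passed in the main comparison. With the covariate 307 genes were higher and 466 lower over all genes. Of the pathway genes 1 was then higher, and Sst, Ppy, Pyy and Rgs5 stayed lower. Leaving out single arrays gave 1065 to 1591 genes higher and 8 to 18 pathway genes higher. The cause of these changes was not tested. Of 23 named genes that passed, 14 did so with each array left out, 20 with the replicate number as a block and 7 with the covariate. Some calls were lost under the covariate with little change in the difference, as for Kcnj5 (0.50 to 0.49) and Grk4 (0.43 to 0.42). Others were lost with a large one, as for Gnao1 (1.06 to 0.080). The covariate did not overlap between the ages, so a lost call does not show what the difference depends on. Arrays of the same number did not deviate together (r = -0.19, 0.19 and -0.21), so the numbers are not taken as pairs, and with them as a block 1384 genes were higher and 1225 lower. Of 588 values of 40 named genes under alternatives, 523 kept their direction and side of the threshold. A signal near or under the first quartile limits what can be said of Sstr1, Npy1r, Gal and Npy5r, of Adcy8 at day 20 and of Gng11 in adult.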

Other observations

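The enzymes that make or break the lipid ligands of Gpr119 had 1 call among 6, with 4 higher and 1 lower in adult at an unadjusted p under 0.05. Over all genes 11.8% rose and 10.9% fell, and at the unadjusted limma p 2629 of 14506 were higher and 2332 lower. The same shares stand beside the counts of Gq effectors below. Faah, fatty acid amide hydrolase, which breaks down oleoylethanolamide, had log2 signals of 8.94, 8.90 and 8.89 in adult and of 8.09, 8.25 and 8.05 at day 20, and was 1.72-fold higher in adult (log2 difference 0.78 ± 0.089, SE, n = 3 per age, limma adjusted p = 0.00064). No adult array came near a day 20 array. Under the pan-endocrine covariate its difference was 0.88 (adjusted p = 0.012). Of 7 phospholipase C beta and inositol trisphosphate receptor genes, the Gq effectors that Ffar1 acts through, 0 passed by limma and 1 was higher at an unadjusted p under 0.05. The brightest of them, Itpr3, had signals of 9.46 ± 0.11 in adult and 9.51 ± 0.14 at day 20 (SD, n = 3, adjusted p = 0.76).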
